A study of Mus musculus with 8 samples.

Results

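The 10 genes followed here sit at successive steps of HGF/MET signalling, and they were chosen by gene symbol from the 50600 genes of the count table: the ligand Hgf, the protease St14 and the protease inhibitors Spint1 and Spint2, the adaptor Gab1, the ubiquitin ligases Cbl and Cblb, the endocytic adaptor Sh3kbp1, the recycling factor Rab11fip1 and the kinase Prkce. All 10 symbols matched 1 row each. The cells were murine malignant peripheral nerve sheath tumor (MPNST) lines. NF1-MET is a Met-amplified line from a mouse tumor of genotype Nf1 fl/ko, lox-stop-lox MET tg/+, Plp-creERT tg/+, in which the Plp promoter drives an inducible Cre in Schwann lineage cells, and it carries a spontaneous Cdkn2a deletion. NF1-MET;sgP53 is its derivative, made by CRISPR targeting of Trp53 and puromycin selection, so both lines share the Nf1, MET and Cdkn2a background and each genotype is 1 line. NF1-MET;sgP53 is also called the knockout line, since its label is Trp53 KO. Each line was cultured with DMSO vehicle or with 100 nM capmatinib, a kinase inhibitor selective for MET, for 24 h in medium with fetal bovine serum, and poly(A) RNA was sequenced from 2 libraries for each of the 4 groups. The 2 libraries of a group are labelled as biological replicates and came from duplicate treatments of plated cells of 1 line, so p-values measure the spread between duplicate cultures. The study also made an empty-vector control of NF1-MET, and whether the libraries labelled NF1-MET came from it or from the unmodified line is not given in the sources used here. Their short codes begin with SEV, which the labels do not explain. If they came from the unmodified line, effects of the vector and of selection cannot be told apart from that of the Trp53 guide.

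HGF is secreted as an inactive single chain and becomes a ligand for MET only after cleavage by serine proteases such as matriptase (St14), which the Kunitz inhibitors HAI-1 (Spint1) and HAI-2 (Spint2) hold in check. Activated MET recruits the docking protein GAB1, which passes the signal to PI3K, SHP2 and the RAS/ERK pathway. CBL ligases then ubiquitinate the receptor, CIN85 (Sh3kbp1) couples CBL to the endocytic machinery, and the receptor is either degraded or returned to the surface by RAB11 vesicles, where RAB11FIP1 acts as an effector. Protein kinase C epsilon (Prkce) is a diacylglycerol-activated kinase that has been tied to traffic of internalised MET.

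Library totals were 30.1 to 42.8 M counts (M, 1e6). Gm42418, a transcript that overlaps ribosomal RNA, took 1.11% to 13.1% of them and varied within groups. The targeted gene was read first as a check of the labels: Trp53 was 182 and 193 CPM (counts per 1e6 counts, scaled by trimmed mean of M-values) in NF1-MET vehicle libraries and 97.5 and 100 CPM in NF1-MET;sgP53 vehicle libraries, a log2 difference of -0.94, and the p53 target Cdkn1a was 92.9 and 87.2 CPM against 29.5 and 27.1 CPM. A guide does not remove the transcript, so this is a check of RNA level only. Defining Schwann markers were close to absent: Sox10 reached at most 7 counts in any library, and the 10 Schwann lineage markers summed to 1.92 to 4.35 CPM. All 8 neural crest and mesenchymal markers were expressed, and their sum was 13900 to 14700 CPM in vehicle and 36000 to 37100 CPM in capmatinib libraries, mostly from Col1a1 and Col1a2. The other markers did not all move that way: in NF1-MET the mean level went from 65.0 CPM in vehicle to 16.2 CPM in capmatinib for Sox9, from 5690 to 4970 CPM for Vim, from 418 to 326 CPM for Pdgfra and from 45.2 to 44.0 CPM for Twist1, while Pdgfrb went from 181 to 447 CPM and Prrx1 from 509 to 616 CPM. These differences accompany every capmatinib difference given here, and their part in them was not tested. Immune markers summed to 0.831 to 1.93 CPM and endothelial markers to 0.13 to 0.358 CPM.

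Of the 10 genes, 7 passed the low-count filter (at least 10 counts in at least 2 libraries), and St14, Spint1 and Spint2 did not. With capmatinib in NF1-MET cells, 2 of the 7 were called higher and 3 lower at an adjusted p under 0.05, beside 35.5% of all tested genes called higher and 34.7% called lower. In NF1-MET;sgP53 cells, 3 were higher and 4 lower with capmatinib, beside 34.2% and 33.4% of all genes. Between the lines in vehicle, 0 were higher and 3 lower in NF1-MET;sgP53, beside 10.9% and 12.3%. Between the lines in capmatinib, 2 were higher and 2 lower, beside 5.94% and 6.34%. The capmatinib response differed between the lines for 2 genes, both with a less negative log2 fold change in NF1-MET;sgP53, beside 3.85% of all genes with a higher and 5.86% with a lower interaction term. The lines' comparisons and the treatments' comparisons share libraries, so the counts are not independent of each other. Scaling by library totals alone shifted all genes together, by a median log2 of -0.186 and -0.124 for capmatinib in the 2 lines and 0.115 between the lines in capmatinib. The share of calls that were higher then moved from 50.5% to 35.5%, from 50.6% to 39.8% and from 48.4% to 80.6%, from 47.1% to 63.3% between the lines in vehicle and from 39.7% to 61.0% for the interaction.

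**Figure D1:**
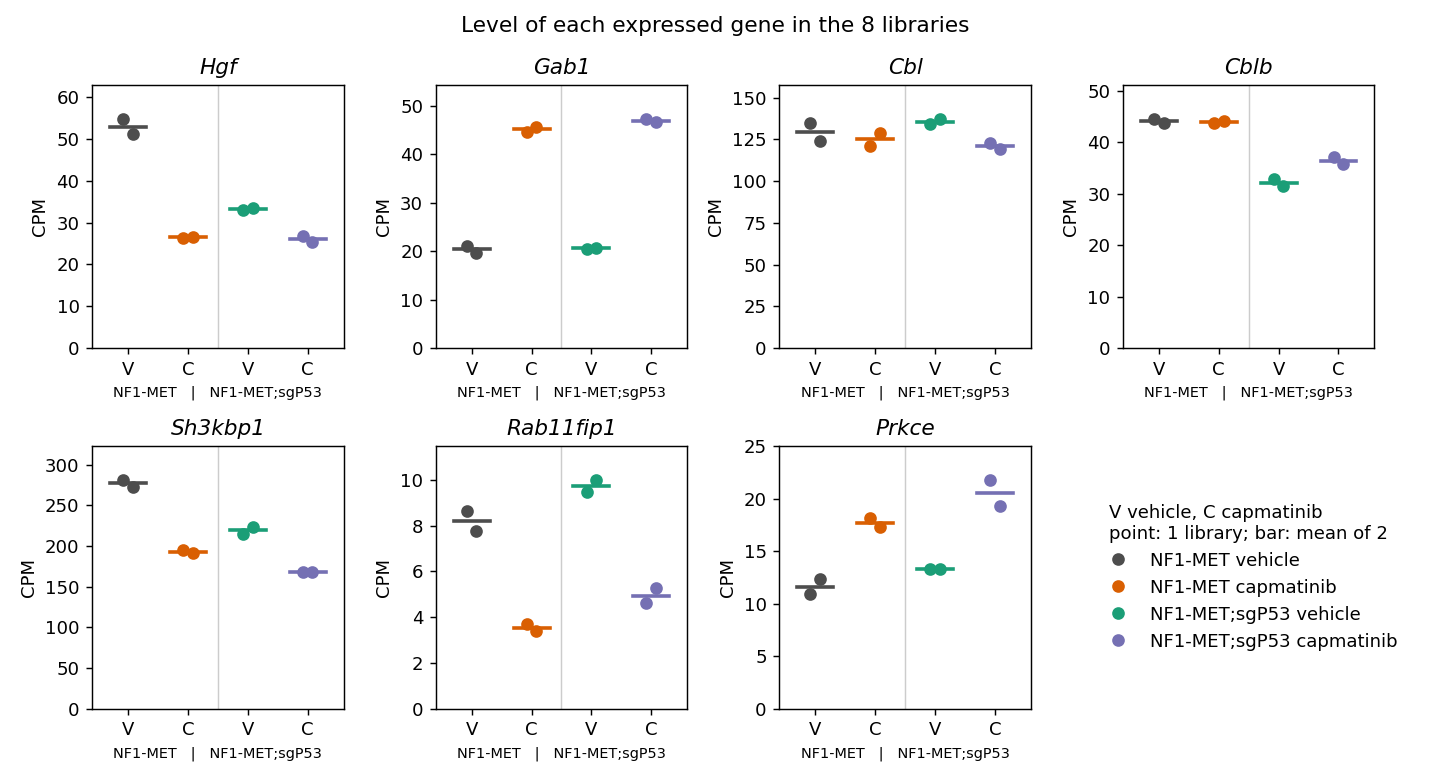
CPM (y axis, linear from 0) of the 7 expressed genes in each of the 8 libraries. V is vehicle and C capmatinib, a point is 1 library and a bar the mean of 2. Hgf was highest in NF1-MET vehicle and between 25.3 and 26.7 CPM in the 4 capmatinib libraries, and Gab1 was 19.7 to 21 CPM in vehicle and 44.5 to 47.2 CPM in capmatinib libraries.

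Levels per kilobase of annotated exon placed the expressed genes in an order whose ends were the same in the 4 groups. In NF1-MET vehicle cells Sh3kbp1 was 27.4 ± 0.568 CPM per kb (SD, n = 2), Cbl 10.5 ± 0.593 and Hgf 7.36 ± 0.361. Cblb was 4.21 ± 0.0428 CPM per kb and Gab1 4.0 ± 0.171, neighbours that differed by little more than the larger SD. Prkce was 1.60 ± 0.147 CPM per kb and Rab11fip1 0.758 ± 0.0573. Sh3kbp1 and Cbl stayed first and second and Prkce and Rab11fip1 last in all 4 groups, while Hgf, Gab1 and Cblb changed places. Gab1 ranked next after Cbl under capmatinib in both lines, at 8.88 ± 0.166 CPM per kb in NF1-MET cells and 9.24 ± 0.0841 in the knockout line. Under capmatinib in NF1-MET;sgP53, Hgf at 3.62 ± 0.137 and Cblb at 3.48 ± 0.105 CPM per kb were neighbours whose libraries overlapped. The order depends on gene models: with the longest transcript as the length, Hgf was 15.3 CPM per kb in NF1-MET vehicle and passed Cbl at 11.4.

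**Figure D2:**
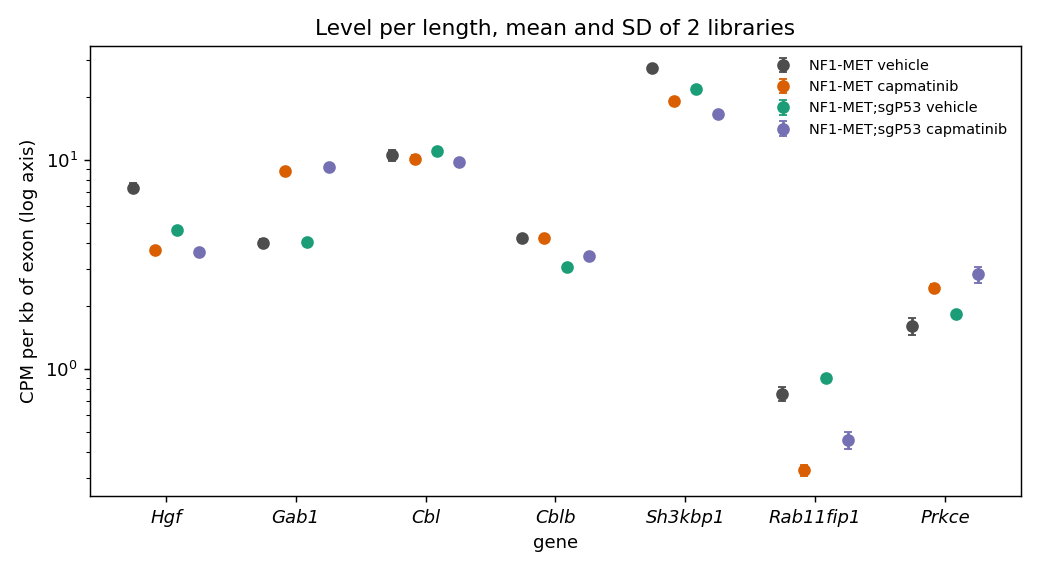
Mean CPM per kb of union exon (y axis, log scale) with SD of 2 libraries for each expressed gene (x axis) in the 4 groups (colours). Sh3kbp1 ran from 16.6 to 27.4 and Rab11fip1 from 0.327 to 0.900 CPM per kb, the top and the bottom of the order in every group.

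St14, Spint1 and Spint2, the 3 members that act on HGF cleavage, were at or near 0. Spint2 (chr7:29256323-29281912, minus strand, mm10), the gene for HAI-2, had 0 counts in all 8 libraries, which allows at most 3 counts or 0.0702 to 0.108 CPM in a library, a limit that covers counting error only. St14 (chr9:31089402-31131853, minus strand), the gene for matriptase, had 1 count in NF1-MET vehicle replicate 1, 1 in NF1-MET;sgP53 capmatinib replicate 2 and 0 in the other 6 libraries. Spint1 (chr2:119237362-119249527, plus strand), the gene for HAI-1, had 6 and 3 counts in NF1-MET vehicle, 0 and 2 in NF1-MET capmatinib, 0 and 3 in NF1-MET;sgP53 vehicle and 0 and 0 in NF1-MET;sgP53 capmatinib. None of the 3 passed the filter, so none was tested for a difference. All are typical of epithelia, and the epithelial markers were low as well: of 23 listed, Krt8 alone passed the filter, 7 were at 0 in every library, and Cdh1 reached at most 4 counts and Epcam 7. The summed epithelial level was 1.1 to 1.2 CPM in NF1-MET vehicle and 0.496 to 0.851 CPM in the other 3 groups. Promoter sequence is shown for the member without reads, from RefSeq (GRCm38.p6), as the 250 bases before the start at chr7:29281978-29282227 on the minus strand. It is 69.6% G or C, against a median of 52.4% over all 32851 windows, and it held no match to the 3 motifs searched on both strands: AP-1 (TGANTCA), the ETS core (GGAAG) and the p53 half-site. For comparison, 6.75%, 64.1% and 7.13% of all windows hold at least 1 of these, in that order.
Spint2 promoter: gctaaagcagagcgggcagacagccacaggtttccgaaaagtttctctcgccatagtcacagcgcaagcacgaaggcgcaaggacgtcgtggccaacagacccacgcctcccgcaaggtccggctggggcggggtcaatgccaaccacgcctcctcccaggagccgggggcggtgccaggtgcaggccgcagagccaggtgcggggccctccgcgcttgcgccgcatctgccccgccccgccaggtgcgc

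Hgf, the ligand, was the tested member with the largest difference in response between the lines. It lies at chr5:16553495-16620152 on the plus strand, and 6.735% of its exon bases overlap the same-strand gene Gm43489. Hgf was 54.7 and 51.1 CPM in NF1-MET vehicle libraries and 26.4 and 26.6 CPM in NF1-MET capmatinib libraries. In NF1-MET;sgP53 it was 32.9 and 33.5 CPM in vehicle and 26.7 and 25.3 CPM in capmatinib. Both NF1-MET vehicle libraries stood above all 6 others, both NF1-MET;sgP53 vehicle libraries came next, and the 4 capmatinib libraries overlapped between the lines. Hgf fell with capmatinib by 1.01 on the log2 scale in NF1-MET (SE 0.0486, adjusted p = 1.76e-18), a level 2.02-fold lower. It fell by 0.35 in NF1-MET;sgP53 (SE 0.0526, adjusted p = 3.69e-06), a level 1.28-fold lower. Without drug it was 1.61-fold lower in NF1-MET;sgP53 than in NF1-MET (log2 -0.69, SE 0.0452, adjusted p = 4.48e-10). Under capmatinib the lines differed by a log2 of -0.03, with a 95% interval of -0.14 to 0.09 (adjusted p = 0.821). The interaction, the NF1-MET;sgP53 response minus the NF1-MET response, was 0.64 on the log2 scale (SE 0.0716, adjusted p = 7.44e-07), and it ranged from 0.59 to 0.72 over the alternatives tried. Larger absolute interaction terms were fitted for 9.85% of tested genes. The first of 2 RefSeq starts of Hgf is shown because this gene has the largest interaction of the 7. The 250 bases before it, at chr5:16553245-16553494 on the plus strand, hold 3 ETS core matches on the opposite strand (capitals), beginning 199, 54 and 48 bases before the start, and no AP-1 or p53 half-site match.
Hgf promoter: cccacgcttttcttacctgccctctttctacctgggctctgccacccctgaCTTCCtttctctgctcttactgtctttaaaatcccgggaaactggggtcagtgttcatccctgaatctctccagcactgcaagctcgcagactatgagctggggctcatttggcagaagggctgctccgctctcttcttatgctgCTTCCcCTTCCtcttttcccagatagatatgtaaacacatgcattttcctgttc

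MET itself is the receptor that this ligand binds, and its transcript moved with capmatinib too. Met was 352 and 362 CPM in NF1-MET vehicle, 230 and 232 CPM in NF1-MET capmatinib, 344 and 342 CPM in knockout vehicle and 249 and 246 CPM in knockout capmatinib. It fell with the drug by 0.64 in NF1-MET and by 0.47 in the knockout line on the log2 scale, and the interaction was 0.16 (SE 0.0364, adjusted p = 0.00565). Whether transcripts of the MET transgene count toward this row was not tested. The ratio of Met to Hgf per kb within a library, which does not depend on library size, was 6.01 and 6.64 in NF1-MET vehicle and 8.17 and 8.15 in NF1-MET capmatinib. It was 9.79 and 9.57 in NF1-MET;sgP53 vehicle and 8.71 and 9.11 in NF1-MET;sgP53 capmatinib. The ratio was thus lowest in NF1-MET vehicle and highest in NF1-MET;sgP53 vehicle, with the capmatinib groups between them and no overlap among the 4 groups. Its size depends on the gene models: with longest transcripts as lengths, a choice added after the data were seen, the group means were 3.44, 4.44, 5.27 and 4.85 in the same order of groups.

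Genes of HGF and MST1 activation beside the members were mostly silent too, apart from the plasminogen activators. Of 28 listed genes (proteases that can cleave HGF, their inhibitors, HGF-binding proteoglycans, the related ligand MST1 with its receptor, the convertase Furin and Met itself), 9 passed the filter and 11 had 0 counts in every library, and the HGF activator Hgfac reached at most 1 count. With capmatinib in NF1-MET, 3 of the 9 were higher and 5 lower (median log2 fold change -0.22, against 0.00 for all genes), and in NF1-MET;sgP53 2 were higher and 6 lower (median -0.25). The shares higher and lower were 33.3% and 55.6%, then 22.2% and 66.7%, beside 35.5% and 34.7%, then 34.2% and 33.4%, of all genes. Met, given above, is 1 of the 9 and 1 of the lower genes in both lines. Plau, the urokinase-type activator that can also cleave HGF, rose from 98.4 and 95.9 CPM to 387 and 396 CPM in NF1-MET and from 127 and 125 CPM to 380 and 376 CPM in the knockout line. The heparan sulfate proteoglycan Gpc1 fell from 318 and 318 CPM to 236 and 243 CPM in NF1-MET and from 277 and 269 CPM to 214 and 215 CPM in the knockout line. Furin, the convertase that processes the MET precursor, fell by a log2 of 0.22 in NF1-MET. Between the lines in vehicle, 4 were higher and 2 lower in NF1-MET;sgP53 (44.4% and 22.2%, beside 10.9% and 12.3% of all genes), with Plat at a log2 of 0.45 and Plau at 0.36 among the higher. In capmatinib 3 were higher and 2 lower (33.3% and 22.2%, beside 5.94% and 6.34%), and the 5 called became 3 without NF1-MET capmatinib replicate 2, without knockout capmatinib replicate 1 or with DESeq2 and 2 with library totals. The interaction was called for 5 of the 9, 1 higher (Met) and 4 lower (11.1% and 44.4%, beside 3.85% and 5.86% of all genes), with Plau at -0.43 and Plat at -0.29 among the lower, and for 0 with library totals.

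Gab1, the docking adaptor, rose with capmatinib by a like amount in both lines. It lies at chr8:80764438-80880519 on the minus strand, and 5.234% of its exon bases overlap the opposite-strand gene Gm31105, whose reads cannot be told apart because the counting strand is not stated. Gab1 was 21 and 19.7 CPM in NF1-MET vehicle and 44.5 and 45.7 CPM in NF1-MET capmatinib. In NF1-MET;sgP53 it was 20.5 and 20.6 CPM in vehicle and 47.2 and 46.6 CPM in capmatinib. The 4 capmatinib libraries lay above the 4 vehicle libraries with a wide gap. The rise was 2.20-fold in NF1-MET (log2 1.14, SE 0.0522, adjusted p = 5.66e-19) and 2.28-fold in NF1-MET;sgP53 (log2 1.19, SE 0.0491, adjusted p = 1.95e-15). The interaction was 0.04 with a 95% interval of -0.11 to 0.19 (adjusted p = 0.808). Between the lines Gab1 was 0.997-fold in vehicle, with an interval of -0.13 to 0.12 on the log2 scale (adjusted p = 0.976), and 1.04-fold in capmatinib, with an interval of -0.03 to 0.14 (adjusted p = 0.45). The promoter of the first of 2 RefSeq starts, the 250 bases at chr8:80880520-80880769 on the minus strand, is shown as that of the tested member with the highest log2 fold change under capmatinib in both lines. It is 70.8% G or C and holds 1 ETS core match, in capitals, on the opposite strand.
Gab1 promoter: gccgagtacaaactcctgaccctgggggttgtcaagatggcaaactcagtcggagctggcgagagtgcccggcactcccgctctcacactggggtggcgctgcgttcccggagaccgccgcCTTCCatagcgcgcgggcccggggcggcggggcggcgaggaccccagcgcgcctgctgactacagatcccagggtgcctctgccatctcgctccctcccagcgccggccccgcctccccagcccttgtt

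The other adaptors and direct effectors of MET moved in both directions. Of 33 listed, 32 were tested: 14 were higher and 12 lower with capmatinib in NF1-MET (median log2 fold change 0.06), and 12 were higher and 7 lower in NF1-MET;sgP53 (median 0.01). The shares higher and lower were 43.8% and 37.5% in NF1-MET, beside 35.5% and 34.7% of all genes, and 37.5% and 21.9% in the knockout line, beside 34.2% and 33.4%. Stat3, a transcription factor that binds the MET docking site, rose from 70.7 and 71.9 CPM to 168 and 173 CPM in NF1-MET and from 93.2 and 95.3 CPM to 201 and 198 CPM in the knockout line. Dok4, a docking protein, rose by a log2 of 0.87 in NF1-MET and 0.84 in the knockout line. Rasa1, the RAS GTPase-activating protein, fell from 299 and 300 CPM to 127 and 128 CPM in NF1-MET and from 282 and 288 CPM to 125 and 123 CPM in the knockout line. Cd44, a co-receptor of MET in some of its isoforms, fell from 843 and 866 CPM to 466 and 453 CPM in NF1-MET and from 809 and 820 CPM to 451 and 464 CPM in the knockout line. Between the lines, vehicle libraries gave 4 higher and 9 lower (12.5% and 28.1%, beside 10.9% and 12.3% of all genes), and capmatinib libraries 1 higher (Stat3) and 4 lower (3.12% and 12.5%, beside 5.94% and 6.34%). In the interaction, 3 were higher and 4 lower (9.38% and 12.5%, beside 3.85% and 5.86% of all genes). These counts moved with the settings: the 13 genes called in vehicle became 8 without any 1 of the 4 libraries and 6 with library totals. The 5 in capmatinib became 3 without NF1-MET capmatinib replicate 2 or with DESeq2 and 2 with library totals. The 7 of the interaction became 3 without NF1-MET vehicle replicate 1 or 2 and 1 with library totals.

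**Figure D3:**
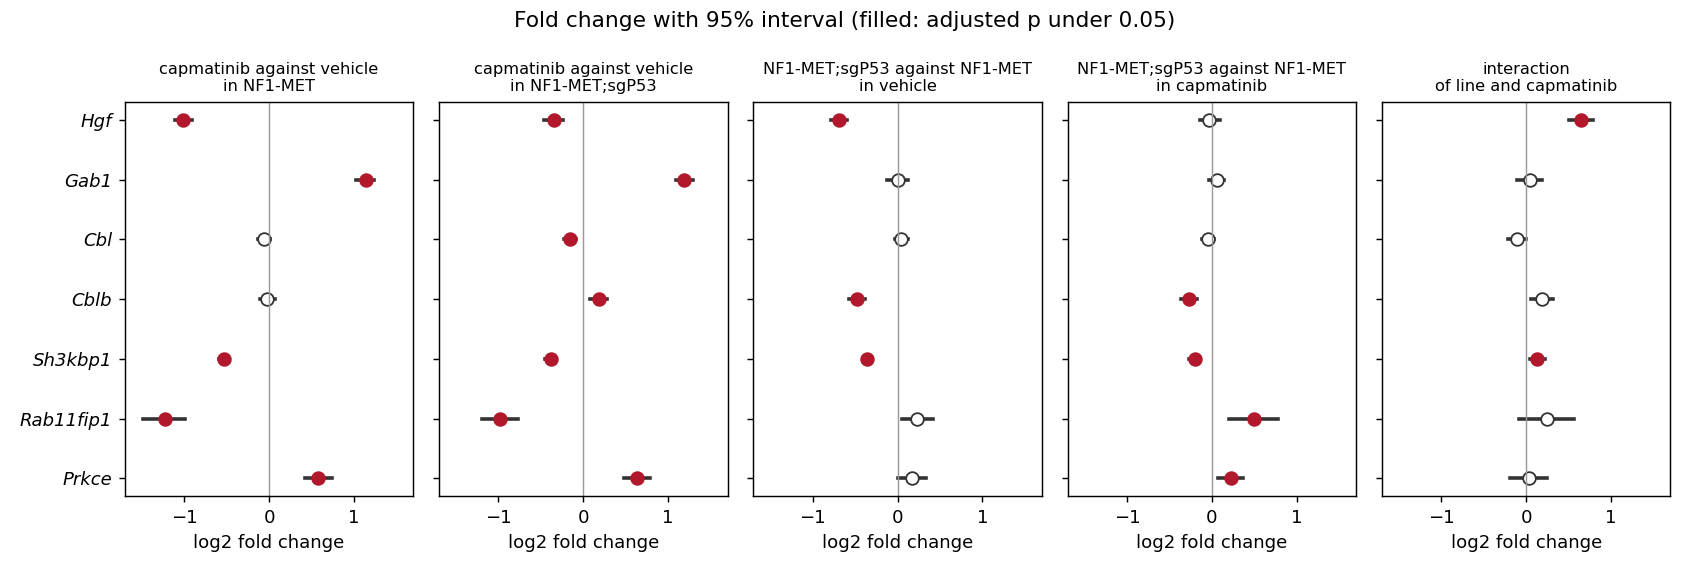
Log2 fold change (x axis) with 95% interval of the 7 expressed genes (y axis) in the 5 comparisons, where filled points passed an adjusted p of 0.05. Hgf is at -1.01 and -0.35 in the 2 capmatinib panels, -0.69 between the lines in vehicle and -0.03 in capmatinib, while Gab1 is above 1 in both capmatinib panels and near 0 in the 3 others.

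Cbl and Cblb encode related RING-type ubiquitin ligases, and they differed in their dependence on line. Cbl (chr9:44142976-44234049, minus strand) was 135 and 124 CPM in NF1-MET vehicle, 121 and 129 CPM in NF1-MET capmatinib, 134 and 137 CPM in knockout vehicle and 123 and 119 CPM in knockout capmatinib. Its NF1-MET groups overlapped, and its NF1-MET;sgP53 groups did not. Cbl fell by 0.16 with capmatinib in NF1-MET;sgP53 (SE 0.0349, adjusted p = 0.000307). In NF1-MET the log2 fold change was -0.06 (adjusted p = 0.093), and without NF1-MET vehicle replicate 2 it was -0.11 with an adjusted p of 0.0343. With library totals as the only scaling it was -0.25 (adjusted p = 3.16e-05), a called fall. The interaction for Cbl, -0.11, did not pass the threshold (adjusted p = 0.216), and neither did the differences between lines, 0.04 in vehicle (adjusted p = 0.42) and -0.05 in capmatinib (adjusted p = 0.443).

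Cblb (chr16:52031225-52208048, plus strand) was lower in NF1-MET;sgP53 under both treatments. It was 44.5 and 43.8 CPM in NF1-MET vehicle, 43.8 and 44.1 CPM in NF1-MET capmatinib, 32.8 and 31.5 CPM in knockout vehicle and 37.2 and 35.7 CPM in knockout capmatinib. All 4 NF1-MET libraries lay above all 4 NF1-MET;sgP53 libraries. The log2 difference between lines was -0.48 in vehicle (SE 0.0451, adjusted p = 9.65e-08) and -0.27 in capmatinib (SE 0.0442, adjusted p = 0.000365), the latter not called with library totals as the only scaling (log2 -0.16, adjusted p = 0.42). Capmatinib raised Cblb by a log2 of 0.18 in NF1-MET;sgP53 (SE 0.049, adjusted p = 0.00254), a call also lost with library totals (0.06, adjusted p = 0.686), and the NF1-MET log2 fold change was -0.02 with an interval of -0.11 to 0.07 (adjusted p = 0.676). With library totals the NF1-MET value was -0.21 (adjusted p = 0.0038), a called fall. The interaction of 0.19 had an adjusted p of 0.0644 and passed at 0.0232 with Gm42418 left out of library sizes, at 0.046 with DESeq2 size factors, at 0.0464 with no low-count filter and at 0.0255 without NF1-MET;sgP53 capmatinib replicate 2. Of the 12 RefSeq promoter windows of 7 members (St14, Rab11fip1 and Prkce have none in the table), the Cblb window alone held a p53 half-site match, beginning 208 bases before the start, beside the 7.13% of all windows that hold one. All 250 bases of that window lie within annotated exons of Cblb, whose annotated start is upstream of it. No member window held AP-1, and 9 of the 12 held the ETS core, beside 6.75% and 64.1% of all windows. The windows of the Gab1 starts overlap, as do the first 2 of Sh3kbp1, so the 12 are not separate.

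Within the Cbl and Cblb pair, the share of Cblb per kb was 28% and 29.3% in NF1-MET vehicle and 29.9% and 28.7% in NF1-MET capmatinib. It was 22.4% and 21.4% in NF1-MET;sgP53 vehicle and 26.2% in both NF1-MET;sgP53 capmatinib libraries. The 2 NF1-MET groups overlapped, and both NF1-MET;sgP53 groups lay below them. With longest transcripts as lengths, also added after the data were seen, the group means were 36.8%, 37.6%, 28.9% and 34.0% in the same order of groups.

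**Figure D4:**
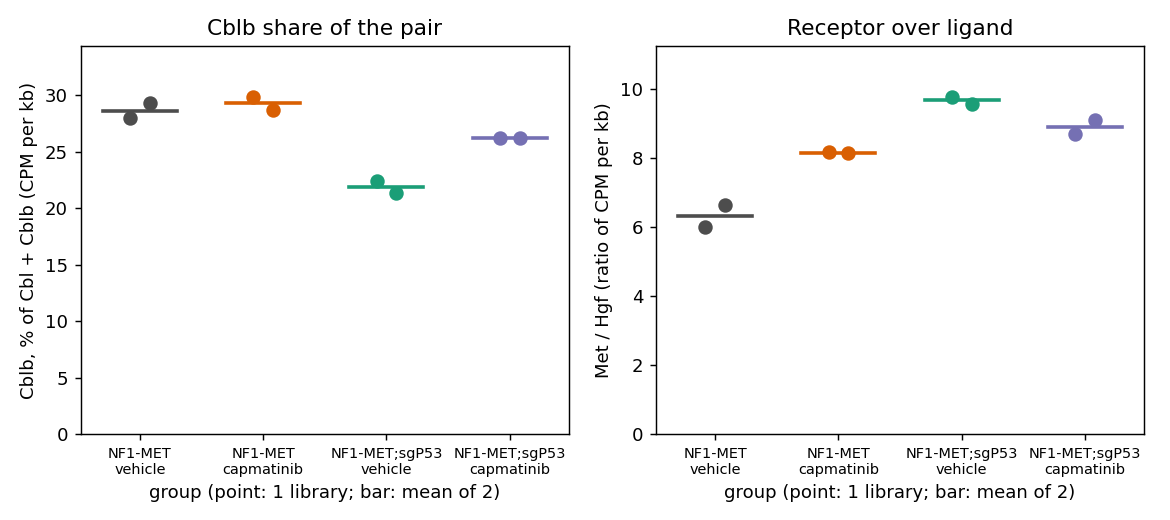
Left, Cblb as a percentage of Cbl plus Cblb (CPM per kb), and right, the ratio of Met to Hgf (CPM per kb), where both axes start at 0, a point is 1 library and a bar the mean of 2. The Cblb share was lowest in NF1-MET;sgP53 vehicle (21.9 ± 0.707%, SD, n = 2), and the Met to Hgf ratio was lowest in NF1-MET vehicle (6.32 ± 0.445).

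Sh3kbp1, the most abundant member, encodes CIN85, which links CBL to endophilins during receptor internalisation. It lies at chrX:159627272-159978069 on the plus strand. Sh3kbp1 was 281 and 273 CPM in NF1-MET vehicle, 195 and 191 CPM in NF1-MET capmatinib, 215 and 223 CPM in knockout vehicle and 168 and 168 CPM in knockout capmatinib. The 4 groups did not overlap, with NF1-MET vehicle on top and NF1-MET;sgP53 capmatinib at the bottom. It fell with capmatinib by 0.53 on the log2 scale in NF1-MET (SE 0.0251, adjusted p = 1e-18) and by 0.38 in NF1-MET;sgP53 (SE 0.0315, adjusted p = 3.54e-10). Between the lines its log2 difference, knockout minus NF1-MET, was -0.36 in vehicle (SE 0.0278, adjusted p = 6.31e-09) and -0.20 in capmatinib (SE 0.0301, adjusted p = 0.000138), the latter not called with library totals (-0.09, adjusted p = 0.638). The interaction of 0.13 (SE 0.0398, adjusted p = 0.0313) was not called in 4 of the 8 fits with a library left out, though its size was close to the same: 0.11 without NF1-MET vehicle replicate 1 (adjusted p = 0.162), 0.12 without NF1-MET capmatinib replicate 2 (0.129), 0.11 without NF1-MET;sgP53 vehicle replicate 1 (0.125) and 0.14 without NF1-MET;sgP53 capmatinib replicate 1 (0.0508). With library totals it was 0.21 (adjusted p = 0.475).
The promoter of its first start, 250 bases at chrX:159627022-159627271 on the plus strand, is shown as that of the member highest per kb. It is 76.4% G or C and holds none of the 3 motifs.
Sh3kbp1 promoter: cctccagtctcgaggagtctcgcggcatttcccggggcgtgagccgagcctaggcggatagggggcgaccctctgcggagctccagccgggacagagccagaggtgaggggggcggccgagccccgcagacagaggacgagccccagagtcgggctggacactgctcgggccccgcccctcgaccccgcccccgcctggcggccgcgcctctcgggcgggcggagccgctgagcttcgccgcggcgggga

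Of 41 other genes of receptor ubiquitination, endocytosis and degradation, 40 were found in the table by symbol and 37 tested. With capmatinib 13 were higher and 17 lower in NF1-MET (median log2 fold change -0.03), and 16 were higher and 14 lower in NF1-MET;sgP53 (median 0.00). The list's shares were 35.1% and 45.9% in NF1-MET and 43.2% and 37.8% in the knockout line, beside 35.5% and 34.7%, and 34.2% and 33.4%, of all genes. Sh3bp4, which acts in endocytosis of selected cargo, rose from 39.9 and 40.4 CPM to 99.4 and 100 CPM in NF1-MET and from 39.3 and 40.7 CPM to 82.6 and 86.7 CPM in the knockout line. Stambp, the endosomal deubiquitinase AMSH, rose by a log2 of 0.84 in NF1-MET and 0.73 in the knockout line. Ubash3b, a CBL-binding phosphatase, fell from 44.9 and 45.8 CPM to 21.1 and 18.9 CPM in NF1-MET and from 41.8 and 40.8 CPM to 16.2 and 16.9 CPM in the knockout line. Dnm1, a dynamin, fell by 0.72 in NF1-MET and by 0.57 in the knockout line on the log2 scale. Between the lines, vehicle libraries gave 7 higher and 10 lower (18.9% and 27.0%, beside 10.9% and 12.3% of all genes), and capmatinib libraries 5 higher and 4 lower (13.5% and 10.8%, beside 5.94% and 6.34%). The interaction was called for 4 higher and 2 lower (10.8% and 5.41%, beside 3.85% and 5.86% of all genes). The 17 called in vehicle became 10 without NF1-MET vehicle replicate 2, 11 and 10 without knockout vehicle replicate 1 and 2, 8 with DESeq2 and 6 with library totals. The 9 in capmatinib became 5 without knockout capmatinib replicate 1 or with DESeq2 and 1 with library totals, and with library totals the interaction was called for 1 and the count for capmatinib in the knockout line went from 30 to 19.

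Rab11fip1, an effector of RAB11 recycling endosomes, was the least abundant of the expressed members and fell with capmatinib in both lines. It lies at chr8:27138773-27174646 on the minus strand, and 4.185% of its exon bases overlap the opposite-strand gene 4933416M07Rik, whose reads cannot be told apart here. It was 8.62 and 7.75 CPM in NF1-MET vehicle and 3.69 and 3.38 CPM in NF1-MET capmatinib. In NF1-MET;sgP53 it was 9.46 and 9.99 CPM in vehicle and 4.60 and 5.26 CPM in capmatinib. All 4 vehicle libraries lay above all 4 capmatinib libraries. The fall was 2.35-fold in NF1-MET (log2 -1.23, SE 0.12, adjusted p = 8.13e-11) and 1.97-fold in NF1-MET;sgP53 (log2 -0.98, SE 0.102, adjusted p = 1.76e-08). The interaction was 0.24 with an interval of -0.09 to 0.56 (adjusted p = 0.426). Under capmatinib Rab11fip1 was 1.4-fold higher in NF1-MET;sgP53 (log2 0.49, SE 0.137, adjusted p = 0.0241), a call lost at a similar log2 difference without NF1-MET capmatinib replicate 2 (0.42, adjusted p = 0.154), without NF1-MET;sgP53 capmatinib replicate 2 (0.40, adjusted p = 0.131) and with DESeq2 (0.48, adjusted p = 0.227). In vehicle the difference was 0.23 (adjusted p = 0.0666), and it passed at 0.0475 in 1 model of all 8 libraries and at 0.0425 with a replicate block.

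The other recycling genes moved in both directions. Of 27 listed, 23 were tested: 8 were higher and 9 lower with capmatinib in NF1-MET (median log2 fold change 0.00), and 8 were higher and 7 lower in NF1-MET;sgP53 (median 0.01). In NF1-MET these were 34.8% and 39.1% of the list, beside 35.5% and 34.7% of all genes, and in the knockout line 34.8% and 30.4%, beside 34.2% and 33.4%. Rufy1, an early endosome effector, fell from 31.2 and 28.2 CPM to 16.1 and 15.3 CPM in NF1-MET and from 29.3 and 29.8 CPM to 16.5 and 15.8 CPM in the knockout line. Snx27, a sorting nexin that works with retromer, fell by 0.55 in NF1-MET and by 0.63 in the knockout line on the log2 scale. Ehd2 rose by a log2 of 0.41 in NF1-MET and 0.44 in the knockout line. The 3 tested paralogs of Rab11fip1 rose with capmatinib in NF1-MET, by a log2 of 0.31 for Rab11fip2, 0.22 for Rab11fip3 and 0.19 for Rab11fip5. In the knockout line Rab11fip2 and Rab11fip3 rose by 0.23 and 0.21, and Rab11fip5, at 0.05, was not called. Between the lines, vehicle libraries gave 2 higher and 2 lower (8.7% each, beside 10.9% and 12.3% of all genes), and capmatinib libraries 0 higher and 2 lower (8.7%, beside 6.34%), and the interaction was called for 1 gene (4.35%, beside 5.86% of all genes lower), Rab11fip5, at -0.15, a call lost in 12 of 16 alternatives, among them 6 of the 8 fits with a library left out. The 17 genes called with capmatinib in NF1-MET became 11 without NF1-MET capmatinib replicate 1, and the 15 in the knockout line became 9 with library totals. Between the lines the 4 called in vehicle became 2 without NF1-MET vehicle replicate 1 and 1 with DESeq2 or library totals, and the 2 in capmatinib became 1 with knockout capmatinib replicate 1 or 2 left out and 0 with library totals.

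Prkce rose with capmatinib in both lines. It lies at chr17:86167785-86657919 on the plus strand, and 6.5% of its exon bases overlap the same-strand gene AC154542.1. Prkce was 10.9 and 12.4 CPM in NF1-MET vehicle, 18.2 and 17.3 CPM in NF1-MET capmatinib, 13.3 and 13.3 CPM in knockout vehicle and 21.8 and 19.3 CPM in knockout capmatinib. The capmatinib libraries lay above the vehicle libraries of both lines. The rise was 1.5-fold in NF1-MET (log2 0.58, SE 0.0763, adjusted p = 4.48e-08) and 1.55-fold in NF1-MET;sgP53 (log2 0.63, SE 0.0738, adjusted p = 1.08e-07). The interaction was 0.03 with an interval of -0.19 to 0.25 (adjusted p = 0.915). Between the lines in capmatinib Prkce was higher in NF1-MET;sgP53 by a log2 of 0.22 (SE 0.0696, adjusted p = 0.0472). That call was lost in 6 of 13 alternatives. These were the fits without NF1-MET capmatinib replicate 1 (0.25, adjusted p = 0.0852), without NF1-MET capmatinib replicate 2 (0.18, adjusted p = 0.327) and without NF1-MET;sgP53 capmatinib replicate 1 (0.13, adjusted p = 0.445), and those with DESeq2 (0.22, adjusted p = 0.307), with library totals (0.33, adjusted p = 0.0623) and without Gm42418 (0.22, adjusted p = 0.0503). In vehicle the difference was 0.17 (adjusted p = 0.14), and without NF1-MET vehicle replicate 2 it was 0.29 with an adjusted p of 0.0432.

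Among 13 other protein kinase C and related kinase genes, 11 were tested. With capmatinib 9 were higher and 2 lower in NF1-MET (median log2 fold change 0.41, against 0.00 for all genes), and 7 were higher and 2 lower in NF1-MET;sgP53 (median 0.40). The shares higher were 81.8% and 63.6%, beside 35.5% and 34.2% of all genes, and 18.2% were lower in both lines, beside 34.7% and 33.4%. Prkcb, a calcium-dependent isoform, fell from 72.0 and 64.2 CPM to 4.63 and 4.82 CPM in NF1-MET and from 53.2 and 54.6 CPM to 3.92 and 2.56 CPM in the knockout line. Prkd1, protein kinase D1, a target of the PKC isoforms, rose from 13.5 and 12.8 CPM to 52.3 and 51.5 CPM in NF1-MET and from 16.5 and 16.4 CPM to 50.9 and 52.1 CPM in the knockout line. Prkca fell by 0.28 in NF1-MET and by 0.30 in the knockout line on the log2 scale. Between the lines, vehicle libraries gave 4 higher and 2 lower (36.4% and 18.2%, beside 10.9% and 12.3% of all genes), capmatinib libraries 0 higher and 2 lower (18.2%, beside 6.34%), and the interaction was called for 0 higher and 2 lower (18.2%, beside 5.86%). The 11 genes called with capmatinib in NF1-MET became 7 with library totals. The 2 called between the lines in capmatinib became 0 without NF1-MET capmatinib replicate 2, without knockout capmatinib replicate 2, with DESeq2 or with library totals, and the 2 of the interaction became 1 without knockout capmatinib replicate 2 and 0 with library totals.

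All 10 phosphatases listed, most of which are receptor-type or cytosolic tyrosine phosphatases tied to receptor dephosphorylation, were tested. With capmatinib 5 were higher and 5 lower in NF1-MET (median log2 fold change -0.02), and 4 were higher and 3 lower in NF1-MET;sgP53 (median -0.03), beside 35.5% and 34.7%, and 34.2% and 33.4%, of all genes. Ptprk rose from 43.5 and 43.4 CPM to 109 and 108 CPM in NF1-MET and from 48.7 and 48.8 CPM to 107 and 109 CPM in the knockout line. Dusp6, the ERK phosphatase, fell by 0.31 in NF1-MET and by 0.36 in the knockout line, and Ptpn1, the phosphatase PTP1B, fell by 0.30 and by 0.28 on the log2 scale. Between the lines, vehicle libraries gave 4 higher and 1 lower, beside 10.9% and 12.3% of all genes, and capmatinib libraries 2 higher and 1 lower, beside 5.94% and 6.34%, and the interaction was called for 1 higher and 2 lower, beside 3.85% and 5.86%. With library totals 3 genes were called in vehicle and 0 in capmatinib, and 1 was called in capmatinib with NF1-MET capmatinib replicate 1 or 2 left out or with DESeq2. The interaction was called for 0 to 2 with a library left out, for under 2 in 7 of these 8 fits, and for 0 with DESeq2 or library totals.

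**Figure D5:**
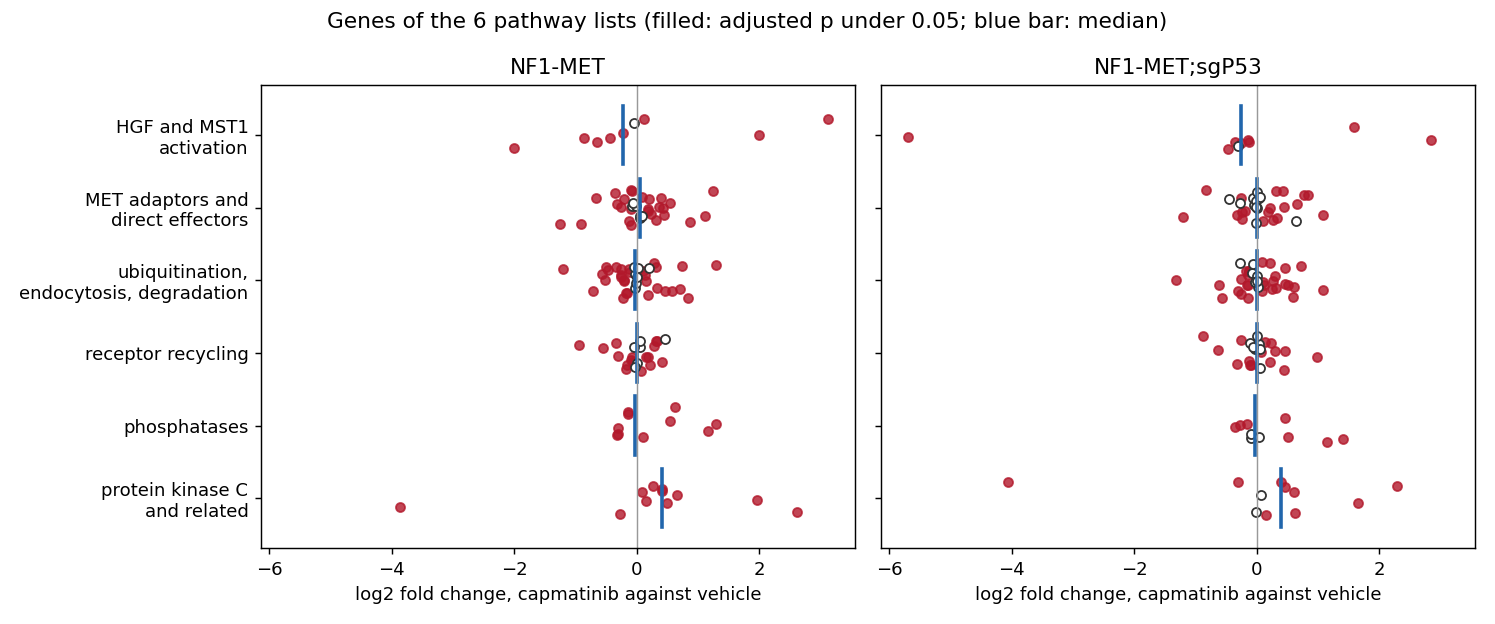
Log2 fold change with capmatinib (x axis) of every tested gene of the 6 pathway lists (y axis) in NF1-MET (left) and NF1-MET;sgP53 (right), where filled points passed an adjusted p of 0.05 and a blue bar is the list's median. The medians lie between -0.25 and 0.06 except for the protein kinase C list, at 0.41 and 0.40, and the lowest point on the right, at -5.69, is Prss22, a gene of 0 to 43 counts whose fitted value depends on the prior count.

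The genes most like each member over the 8 libraries were found in a search of 9846 genes (mean level 5 CPM or more), by the root mean square difference of log2 CPM centred on each gene's mean. The measure describes 8 libraries in 4 groups, which share treatment and line. For Hgf they were Ell2 (0.0603) and Thbs2 (0.074), for Gab1 Sparc (0.0267), and for Cbl Smad2 (0.0249) and Ptpn21 (0.0293). For Cblb they were Exoc4 (0.0598) and Abca7 (0.0609), and for Sh3kbp1 Myof (0.033) and Tspan14 (0.0418). For Rab11fip1 they were Pdpn (0.0739) and Arhgap18 (0.111), and for Prkce Abca3 (0.0615) and Zfp90 (0.067). The members' own log2 spread from lowest to highest library was 1.55 for Rab11fip1, 1.26 for Gab1, 1.11 for Hgf, 1.00 for Prkce, 0.74 for Sh3kbp1, 0.50 for Cblb and 0.21 for Cbl. No member was among the nearest genes of another. The likeness is not particular to the genes named. Of the genes searched, 2036 had a Pearson correlation over 0.95 with Gab1, 786 with Prkce and 658 with Rab11fip1. The same count was 258 for Sh3kbp1, 123 for Hgf, 16 for Cblb and 2 for Cbl.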

How the data were processed

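RNA was sequenced as 50 bp paired reads. Per the study's methods, the authors demultiplexed with bcl2fastq 1.9.0, trimmed with Trim Galore 0.4.2, checked quality with FastQC 0.11.7, and aligned to mm10 with STAR 2.5.2b. The deposited values are raw STAR read counts per gene. The gene annotation and the counting strand are not given in the sources used here. Here, each comparison was fitted to its own libraries with edgeR 4.0.16 (quasi-likelihood F-test, TMM, Benjamini-Hochberg over all tested genes, threshold 0.05, two-sided), and the interaction to all 8. Genes needed at least 10 counts in at least 2 libraries, which 14497 of 50600 had, and a count above 0 in at least 2 libraries of the comparison. Intervals are 95%. CPM used TMM factors over all libraries. Exon lengths and positions came from GENCODE M21, promoters from RefSeq. Fits were tested on simulated counts with changes of at least 2-fold, and smaller changes were not simulated. The median squared deviation between replicates was 1.54 to 1.78 times that of sampling noise. The members and lists were chosen with earlier results of these data known, and 7 members (Hgf, Gab1, Cbl, Cblb, Sh3kbp1, Rab11fip1 and Prkce) also stand in the study's own heat map of these libraries, so their directions are not independent evidence. List genes named were at most the 3 largest called changes in each direction whose higher group averaged 5 CPM or more, and Prss22, Rab11fip3 and the markers Cdh1, Epcam, Hgfac, Krt8, Sox9, Vim, Pdgfra, Pdgfrb, Prrx1 and Twist1 were named after their values were seen. The alternatives were DESeq2 1.42.0, other scalings, filters and models, a replicate block, and each library left out. For comparisons of 2 groups, fits with a library left out also used the libraries of the other groups. Their changes therefore mix the lost library with a change of model. Some genes that the naming rules picked are not reported here.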

Additional observations from a re-analysis of the deposited data

Results flagged for a closer look

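The capmatinib response differed between the lines by the interaction test for these genes, each given as the NF1-MET;sgP53 response minus the NF1-MET response on the log2 scale. The genes given are members, checks and some of the list genes named above. Other list genes were also called, among them Irs1 at -0.47 and Spry4 at 0.3. Hgf was at 0.64 (adjusted p = 7.44e-07) and Sh3kbp1 at 0.13 (adjusted p = 0.0313). The call of Sh3kbp1 was lost in 5 of 16 alternatives. Met was at 0.16 (adjusted p = 0.00565) and Cdkn1a at -0.28 (adjusted p = 0.0148). Plau was at -0.43 (adjusted p = 1.74e-08) and Plat at -0.29 (adjusted p = 0.000219). With library totals the calls of Met, Plau and Plat were lost. Rab11fip5 was at -0.15 (adjusted p = 0.0419), a call lost in 12 of 16 alternatives. Groups of 2 libraries allow no test for a single library far from the others.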

How the results depend on the processing

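Over 476 refits of the 35 member fold changes, 449 kept their side of the threshold, 17 lost a call, 10 gained one and 0 called values changed sign. Members called between the lines in capmatinib numbered 4, and 1 with library totals, 2 with DESeq2 and 2 to 3 with a library left out. Members called for capmatinib in NF1-MET numbered 5, and 7 with library totals. Members with an interaction numbered 2, and 1 with library totals and 1 to 3 with a library left out. Of 14 genes named as most like a member, 2 were also named by Pearson correlation, and 22 of 28 ranks per kb were kept with longest transcripts.

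Deviations of same-numbered libraries correlated at 0.149 to 0.253 among NF1-MET vehicle and both NF1-MET;sgP53 groups, and at -0.0571 to -0.00701 between NF1-MET capmatinib and these 3 groups, so the numbers were not taken to pair the libraries. With the replicate block the members called were 5, 7, 4, 4 and 2 for capmatinib in NF1-MET, capmatinib in NF1-MET;sgP53, the lines in vehicle, the lines in capmatinib and the interaction, and Rab11fip1 between the lines in vehicle passed (0.24, adjusted p = 0.0425).

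Counts over all genes moved by more than 1.5 times in these cases. With library totals, genes higher went from 4963 to 3260 for capmatinib in NF1-MET;sgP53, from 860 to 537 between the lines in capmatinib and from 558 to 192 for the interaction, and genes lower went from 1775 to 743 between the lines in vehicle, from 918 to 129 in capmatinib and from 849 to 123 for the interaction. With DESeq2, higher and lower genes were 833 and 1100 between the lines in vehicle (1580 and 1775 with edgeR), 436 and 434 in capmatinib, and 461 were lower for the interaction. Without Gm42418, 873 were higher for the interaction. Genes lower between the lines in vehicle were 1095 without NF1-MET vehicle replicate 1. Between the lines in capmatinib, 570 were higher without NF1-MET capmatinib replicate 1, 512 higher and 560 lower without NF1-MET capmatinib replicate 2, and 598 lower without NF1-MET;sgP53 capmatinib replicate 2, and without that library 509 were lower for the interaction. The share of calls that were higher was 57.3% between the lines in vehicle in 1 model of all 8 libraries, and for the interaction 58.8% without Gm42418, 53.6% with no filter and 58.3% without NF1-MET;sgP53 capmatinib replicate 2. The causes were not tested.

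With a library left out, a group holds 1 sample that is assumed to vary like the other groups. For comparisons of 2 groups the model then changes too, as given above. Depth limits the least abundant members: the log2 standard error between 2 groups was 0.0895 to 0.137 for Rab11fip1 and 0.0251 to 0.0315 for Sh3kbp1.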
